A study of Mus musculus with 8 samples.

Results

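The vascular endothelial growth factor (VEGF) family was followed through the hearts of newborn mice as 9 genes, the ligands Vegfa, Vegfb, Vegfc and Pgf, the receptors Flt1, Kdr and Flt4, and the co-receptors Nrp1 and Nrp2. They were taken by name from the 27179 genes of the count table, through the Entrez identifier of each row, and not by any measured value. RNA was sequenced from neonatal cardiomyocytes (NCMs) of 8 male C57Bl/6J mice, 4 whose dams breathed filtered air (FA replicates 2, 3, 4 and 6) and 4 whose dams breathed diesel exhaust (DE replicates 1, 3, 5 and 7). Exposure of the dams ran from the start of pregnancy until shortly before birth and the NCMs were collected on postnatal day 0, so the question asked of each gene was whether its RNA level at birth differed between the exposures in utero. Both groups carried no transgene or mutation named in the labels, and both were prepared alike. The hearts, trimmed of atrial and vascular tissue, were dissociated with a collagenase blend and the cells were left on a plate for a time in which fibroblasts attach, with cytosine arabinoside in the medium, before the unattached cells were frozen. Each library came from 1 heart. Dams and litters are not given, so the p-values measure the spread between these 8 hearts.

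VEGF ligands are secreted dimers that act mainly on endothelial cells. Vegfa acts through Kdr (VEGFR2), the main signalling receptor of blood vessel growth, and also binds Flt1 (VEGFR1), which holds ligand tightly and limits its access to Kdr, whereas Vegfb and Pgf bind Flt1 and not Kdr. Vegfc acts through Flt4 (VEGFR3), best known from lymphatic vessels, and the neuropilins Nrp1 and Nrp2 bind VEGF ligands and class 3 semaphorins and work beside the receptors. In the heart, cardiomyocytes are a known source of Vegfa and Vegfb, while the receptors are known from the endothelium that lies between the muscle cells.

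The 9 genes lie on 7 chromosomes of the mouse genome (GRCm38.p6, the build also named mm10). Among the ligands, Vegfa (Entrez 22339) spans chr17:46016993-46032377, Vegfb (22340) chr19:6982472-6987651, Vegfc (22341) chr8:54077532-54186454 and Pgf (18654) chr12:85166637-85177785. The receptors Flt1 (14254) and Kdr (16542) share chromosome 5, at chr5:147561604-147726438 and chr5:75932827-75979072, and Flt4 (14257) spans chr11:49609679-49652739. Nrp1 (18186) spans chr8:128358591-128505476 and Nrp2 (18187) chr1:62703317-62818692. The table gives 1 value per gene and library, so isoforms could not be told apart.

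Promoter sequence from RefSeq (GRCm38.p6) was read for all 9 members, as the 250 bases before each of 11 annotated transcript starts. A hypoxia response core, ACGTG or GCGTG on either strand, stood in 7 of the 11 windows, against 38.6% of the 32851 promoter windows of the mouse table (16.57% hold ACGTG and 28.16% hold GCGTG, and a window may hold both). A GC box, GGGCGG on either strand, stood in 10 of 11, against 32.74% of all windows. The 11 windows were 59.2 to 76.4% G and C, the letters that make up most of these motifs. The shares over all windows were not matched for this. The 3 windows printed are those of the one member that passed the test between exposures, of the ligand best known to respond to low oxygen, and of the receptor for which both Vegfb and Pgf compete. Each is written 5′ to 3′ on the strand of the gene, and capitals mark a hypoxia core or, in Flt1, also the cyclic AMP response element TGACGTCA, which 1.55% of all windows hold.
Pgf, chr12:85177314-85177563, minus strand: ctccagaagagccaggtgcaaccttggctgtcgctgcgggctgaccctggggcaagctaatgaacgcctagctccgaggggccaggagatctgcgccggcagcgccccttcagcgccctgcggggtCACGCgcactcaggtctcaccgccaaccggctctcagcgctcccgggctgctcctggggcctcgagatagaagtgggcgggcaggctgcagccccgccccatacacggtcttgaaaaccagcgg
Vegfa, chr17:46032378-46032627, minus strand: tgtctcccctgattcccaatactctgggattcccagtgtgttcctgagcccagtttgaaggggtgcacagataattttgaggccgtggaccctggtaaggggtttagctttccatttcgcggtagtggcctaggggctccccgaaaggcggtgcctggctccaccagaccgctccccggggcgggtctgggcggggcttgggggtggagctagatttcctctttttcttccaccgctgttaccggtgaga
Flt1, chr5:147726012-147726261, minus strand: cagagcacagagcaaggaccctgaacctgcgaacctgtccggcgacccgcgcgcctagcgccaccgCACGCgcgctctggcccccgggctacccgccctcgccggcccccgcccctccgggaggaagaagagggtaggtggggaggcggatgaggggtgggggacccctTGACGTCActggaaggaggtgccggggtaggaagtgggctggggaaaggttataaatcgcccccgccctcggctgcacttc
In Pgf the core lay 124 bases before the start, and the window before its other annotated start held none. The Flt1 window held 1 core, 184 bases before the start, and was the only one of the 11 with the cyclic AMP element. The Vegfa window held no core, and that of its other, internal start held 2. The printed Pgf and Flt1 windows also lie inside the spans given above for their genes, as do the windows of Kdr and Nrp1. A match to these letters is a description of the sequence and no more, and each window covers only 250 bases.

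Pgf, encoding placental growth factor, was the only member that passed the test between the exposures. Its level, in counts scaled to the size of each library (CPM), was 3.53, 4.63, 4.12 and 5.07 in FA replicates 2, 3, 4 and 6, and 6.14, 11.6, 9.58 and 6.98 in DE replicates 1, 3, 5 and 7. All 4 DE libraries lay above all 4 FA libraries. Of all 14966 genes tested, 14.7% had groups that did not overlap, and Pgf was 1 of 9 members. The mean was 4.34 ± 0.663 CPM over the 4 FA libraries and 8.57 ± 2.48 CPM over the 4 DE libraries (± SD, n = 4). The log2 fold change, DE over FA, was 1.00 (SE 0.21, 95% interval 0.53 to 1.46), a fold of 1.99, with an adjusted p = 0.0234 (quasi-likelihood test of edgeR, Benjamini-Hochberg adjustment over all genes tested). A gene was called when the adjusted p was 0.05 or less and one group exceeded the other by 25% or more, and 5.80% of the tested genes were called (3.58% called and higher in DE, 2.22% called and lower).

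These Pgf levels rest on few reads, from 73 counts in FA replicate 4 to 403 counts in DE replicate 3, and 1522 in all. The call was lost when FA replicate 2 (log2 fold change 0.90, adjusted p = 0.0857), FA replicate 4 (0.97, adjusted p = 0.0784) or DE replicate 3 (0.81, adjusted p = 0.0688) was left out of the edgeR fit.

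**Figure D1:**
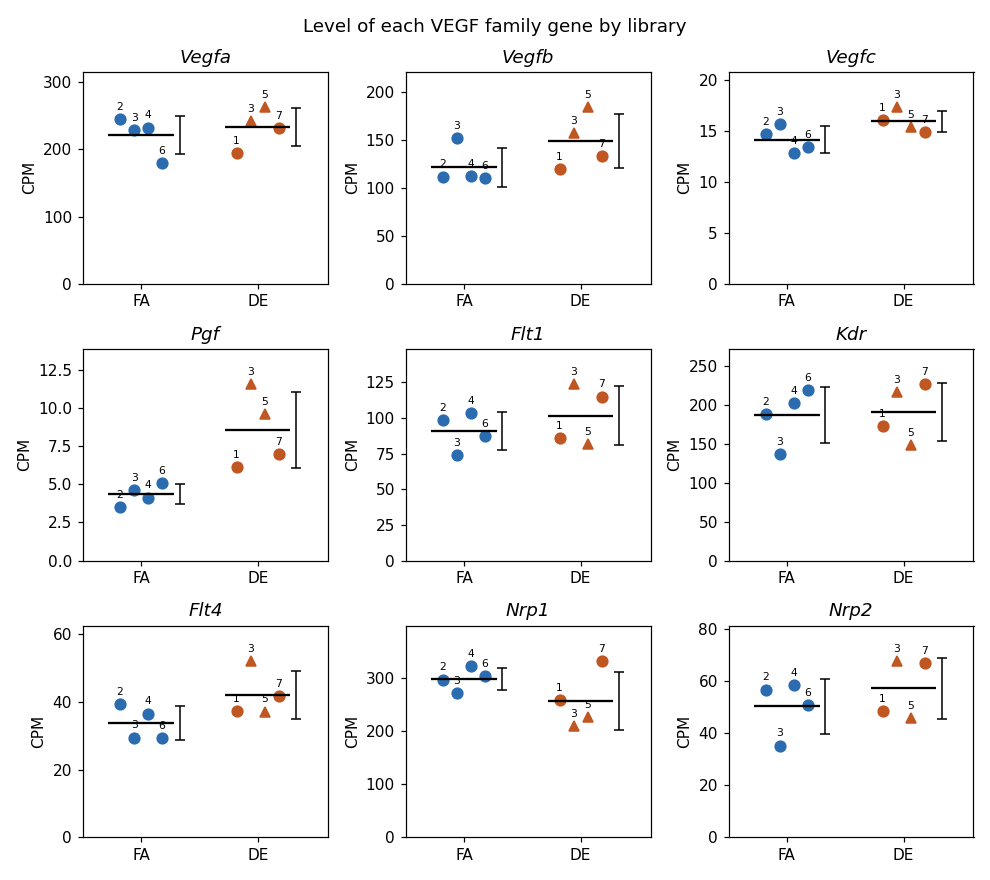
Level of each of the 9 genes in CPM (vertical axes, each starting at 0) in the FA and DE libraries, with replicate numbers beside the points, the group mean as a line and its SD as a bar. Triangles are DE replicates 3 and 5, whose sample names carry another number than the rest. Pgf alone has DE libraries, 6.14 to 11.6 CPM, that all lie above its FA libraries, 3.53 to 5.07 CPM.

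The sample names carry a number, 11 in all FA libraries and in DE replicates 1 and 7, and 12 in DE replicates 3 and 5, and its meaning is not stated in the sources used here. Within DE, Pgf was 6.14 and 6.98 CPM with the number 11 and 11.6 and 9.58 CPM with the number 12. The DE libraries with 11 thus stood above the highest FA library, 5.07 CPM, and below the other two. With the number as a term in the edgeR fit the log2 fold change of Pgf was 0.60 (adjusted p = 0.0954), and over the 4 FA and 2 DE libraries with 11 alone it was also 0.60 (adjusted p = 0.133). The number 12 occurs only in DE, so both fits take the exposure estimate from the same 4 FA and 2 DE libraries. For every gene they are therefore not separate checks. A direct comparison of the DE libraries, chosen after their values were seen, gave a log2 difference of 0.69 for Pgf between 12 and 11 (SE 0.20, adjusted p = 0.0812, edgeR). None of the 9 members was called there, against 2.06% of the tested genes. After Pgf, the members with the smallest adjusted p in that comparison were Nrp1 (0.117) and Vegfb (0.160, edgeR). The 12 libraries were the higher ones in Vegfb, at 157 and 184 CPM against 120 and 133 CPM, and the lower ones in Nrp1, at 210 and 227 CPM against 259 and 333 CPM.

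**Figure D2:**
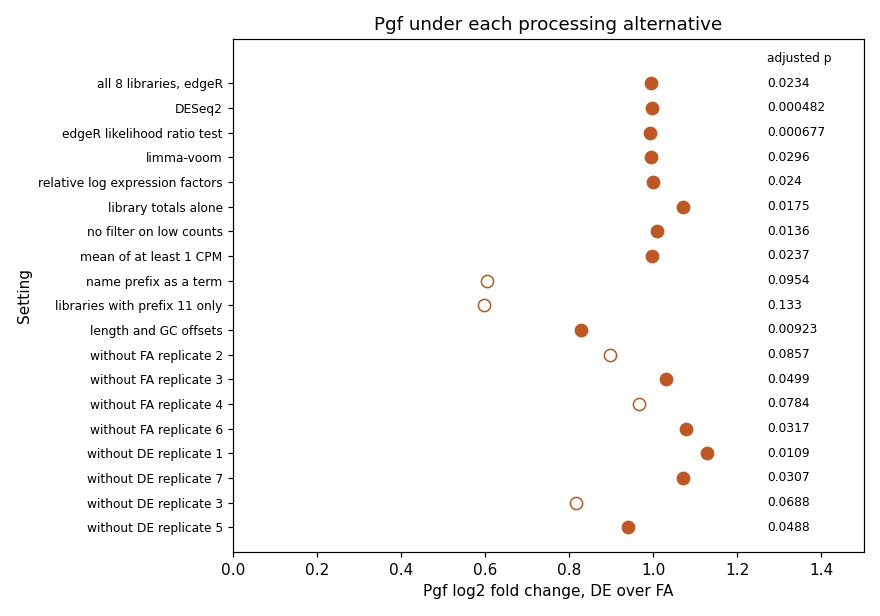
Log2 fold change of Pgf, DE over FA (horizontal axis), in the fit of all 8 libraries and under 18 other settings, with the adjusted p of each at the right. Filled points were called and open points were not; all lie above 0, from 0.60 to 1.13, and 5 are open.

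Vegfa, the main ligand of Kdr, did not pass the test. Its level was 245, 229, 233 and 179 CPM in FA replicates 2, 3, 4 and 6, and 195, 242, 263 and 232 CPM in DE replicates 1, 3, 5 and 7. The groups overlapped, with 1 low library in each, FA replicate 6 and DE replicate 1. Its mean was 221 ± 28.8 CPM in FA and 233 ± 28.4 CPM in DE, a log2 fold change of 0.073 (SE 0.12, 95% interval -0.20 to 0.35; adjusted p = 0.742, edgeR).

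Vegfb, the ligand of Flt1 known for its high level in heart muscle, was 112, 152, 112 and 110 CPM in the FA libraries, in the same order, and 120, 157, 184 and 133 CPM in DE. FA replicate 3 stood apart from the other FA libraries and reached into the DE range. The log2 fold change was 0.29 (SE 0.15, 95% interval -0.042 to 0.62; adjusted p = 0.251, edgeR). It was 0.0575 with the name number as a term and 0.0526 over the libraries with 11. With offsets that remove the trend of each library with transcript length and GC content it was 0.019. That trend differed between libraries. Its slope, in log2 CPM per doubling of length, ran from -0.077 to 0.18 over the FA libraries and from -0.18 to 0.052 over the DE libraries.

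Vegfc, the ligand of Flt4, had the narrowest spread of the ligands relative to its mean, with an SD of 9.11% in FA and 6.53% in DE. It was 14.7, 15.7, 12.8 and 13.4 CPM in FA and 16.1, 17.3, 15.4 and 14.9 CPM in DE, with FA replicate 3 inside the DE range. Its log2 fold change was 0.17 (SE 0.11, 95% interval -0.065 to 0.41; adjusted p = 0.340, edgeR).

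Of the receptors, Flt4 came nearest to the threshold. It was 39.3, 29.4, 36.5 and 29.4 CPM in FA replicates 2, 3, 4 and 6, and 37.3, 52.0, 37.0 and 41.6 CPM in DE replicates 1, 3, 5 and 7. FA replicate 2 lay above DE replicates 1 and 5, so the groups overlapped. Mean levels of 33.6 ± 5.05 CPM in FA and 42.0 ± 7.00 CPM in DE gave a log2 fold change of 0.32 (SE 0.14, 95% interval 0.010 to 0.63) with an unadjusted p of 0.0439 and an adjusted p = 0.183 in edgeR. Flt4 and Pgf were the 2 of 9 members with an unadjusted p under 0.05, against 25.6% of all tested genes.

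Kdr was 189, 137, 202 and 220 CPM in FA and 173, 217, 148 and 227 CPM in DE. Each group held both high and low libraries, with FA replicate 3 the lowest of all, and the log2 fold change was 0.034 (SE 0.17, 95% interval -0.33 to 0.40; adjusted p = 0.920, edgeR). Flt1 was 98.7, 74.0, 103 and 87.5 CPM in FA and 85.9, 124, 82.0 and 115 CPM in DE. Its groups overlapped, and again FA replicate 3 was lowest, for a log2 fold change of 0.16 (SE 0.15, 95% interval -0.18 to 0.50; adjusted p = 0.540, edgeR).

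Nrp1 was the only member with a negative estimate. It was 297, 272, 323 and 304 CPM in FA and 259, 210, 227 and 333 CPM in DE. In DE, replicates 1, 3 and 5 lay below all FA libraries while DE replicate 7 lay above them all. The SD was 21.0 CPM in FA (mean 299) and 54.2 CPM in DE (mean 257), and the log2 fold change was -0.22 (SE 0.14, 95% interval -0.52 to 0.085; adjusted p = 0.344, edgeR). That estimate was -0.016 with the name number as a term and -0.020 over the libraries with 11. Nrp2 was 56.9, 35.3, 58.6 and 50.9 CPM in FA and 48.7, 67.9, 45.8 and 67.1 CPM in DE. As in Flt1, FA replicate 3 was lowest and DE replicates 3 and 7 were highest. Its log2 fold change was 0.18 (SE 0.18, 95% interval -0.21 to 0.57; adjusted p = 0.541, edgeR).

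**Figure D3:**
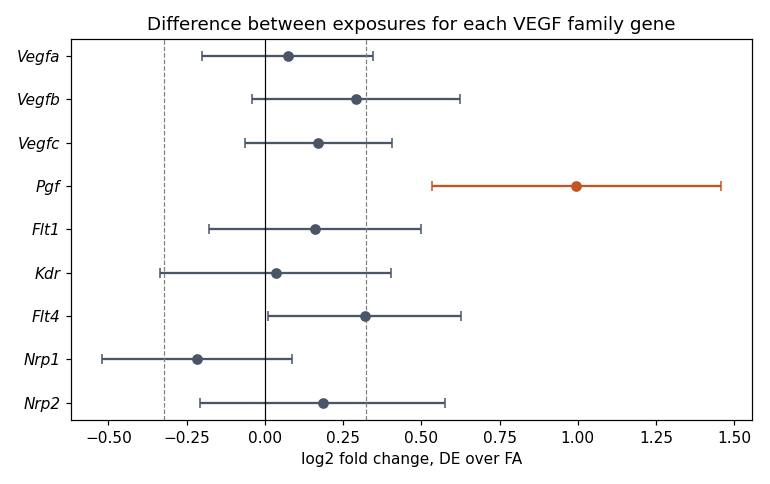
Log2 fold change, DE over FA (horizontal axis), of the 9 genes in the edgeR fit, with 95% intervals as bars and dashed lines where one group exceeds the other by 25%. Pgf, at 1.00, is the only called gene and the only one whose interval lies beyond a dashed line, and the interval of Flt4 starts at 0.010.

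Over the family, 8 of 9 estimates were positive and the median log2 fold change was 0.17, against 0.0037 over all tested genes. With 1 called member, the share called rests on Pgf alone. The intervals of the other members leave room for differences past 25% in both directions for Kdr and in 1 direction for each of the other 7.

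Ratios within a library do not depend on library scaling, and 3 were compared between ligands or receptors and 3 between a receptor and the endothelial markers, by exact two-sided permutation tests with adjustment over the 6. The smallest p that an exact permutation of 4 against 4 libraries allows is 0.0286. The log2 ratio of Pgf to Vegfa counts was -5.67 ± 0.407 in FA and -4.80 ± 0.298 in DE, with no overlap and a difference of 0.87 at that smallest exact p of 0.0286 (adjusted p = 0.171). The ratio of Vegfb to Vegfa differed by 0.21 (exact permutation p = 0.257, adjusted p = 0.514). That of Flt1 to Kdr, which sets the receptor that binds ligand tightly against the main signalling receptor, differed by 0.11 (exact permutation p = 0.457, adjusted p = 0.549). A ratio that is alone at the smallest exact p has an adjusted p of 0.171, so adjustment over the 6 put the threshold out of its reach whatever its size.

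Levels of different genes were compared per kilobase of exon, as CPM divided by the summed length of a gene's exons, on the mean of the 8 libraries. Vegfb stood highest at 84.0 CPM per kilobase and Vegfa followed at 53.0, which placed them at the 96.9th and 94.9th percentiles of the 13851 tested genes with a length. Vegfb was above Vegfa in all 8 libraries. Nrp1 (28.4) and Kdr (20.9) came next, at the 89.9th and 85.8th percentiles, and Nrp1 was above Kdr in 7 of 8 libraries. Flt1 (7.13) and Vegfc (6.14) did not keep an order, with Flt1 higher in 5 of 8 libraries, and neither did Flt4 (4.59) and Nrp2 (4.55), with Flt4 higher in 4 of 8. Pgf was lowest at 2.22 CPM per kilobase, the 34.5th percentile, and below Nrp2 in every library. On this scale it was 1.49 ± 0.228 in FA and 2.95 ± 0.853 in DE and so was still the least abundant member in DE. Per kilobase of the longest transcript in place of all exons, Nrp1 was 76.3 and Vegfa 65.8 CPM, with Vegfa above Nrp1 in only 2 of 8 libraries against 8 of 8 per exon length, so that order depends on the length used. Vegfc and Flt4 also lost their order, Flt1 was above Vegfc in all 8 libraries, and Nrp2 then stood above Flt4 in all libraries.

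**Figure D4:**
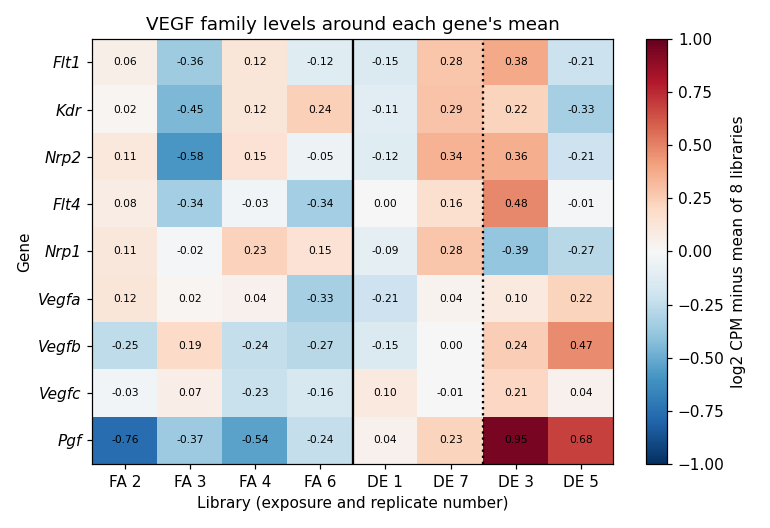
Log2 CPM of each gene minus its own mean over the 8 libraries, by library (FA to the left of the solid line, DE replicates 3 and 5 to the right of the dotted line). Flt1, Kdr and Nrp2 are low together in FA replicate 3 (-0.36, -0.45 and -0.58), whereas Pgf runs from -0.76 in FA replicate 2 to 0.95 in DE replicate 3.

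The members fell into different patterns across the libraries. Flt1 and Nrp2 moved together most closely, with a Pearson correlation of log2 CPM of 0.97 over the 8 libraries and 0.96 after the group means were removed. Kdr and Nrp2 gave 0.88, Flt1 and Flt4 0.83, and Flt1 and Kdr 0.82. Nrp1 did not move with its partner Nrp2 (0.13) and ran opposite to Vegfc (-0.78), Pgf (-0.75) and Vegfb (-0.73). Vegfa gave 0.61 with Vegfb, and Vegfb gave 0.75 with Pgf. These are descriptions over 8 points that share library, depth and preparation. Among the 13120 other tested genes that averaged 1 CPM or more, the 3 whose levels followed Pgf most closely were Fabp5, a fatty acid binding protein (0.98), Clic1, a chloride intracellular channel protein (0.98), and Anxa2, a calcium-dependent membrane binding protein (0.98). Each of them rose, with log2 fold changes of 1.07 (adjusted p = 0.0197), 0.56 (adjusted p = 0.0394) and 0.82 (adjusted p = 0.00928) in edgeR, a direction that their choice by likeness to Pgf largely fixes. With the name number as a term, Fabp5 (0.67, adjusted p = 0.0745) and Clic1 (0.36, adjusted p = 0.183) were not called by edgeR, and over the libraries with 11 none of the 3 was (adjusted p = 0.105, 0.242 and 0.0567, in the same order).

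The labelled cell type was checked against its markers, since the receptors are known from endothelium and not from muscle. The 10 cardiomyocyte markers summed to 62130 to 65920 CPM over the FA libraries against 52170 to 60050 CPM over the DE libraries, without overlap, and Tnnt2, cardiac troponin T, was 8234 ± 997 CPM in FA and 7895 ± 1041 CPM in DE. Of the 10 markers, Myh7 was called higher (log2 fold change 0.53), against 3.58% of all tested genes, and Myh6 (-0.67) and Pln (-0.38) were called lower, against 2.22%. The list's median was -0.15, with 1 of 10 estimates positive, and the lower sum rests mostly on Myh6, at 23300 and 14620 CPM, and Ttn, at 5705 and 3285 CPM, against a higher Myh7, at 10020 and 14490 CPM. With the name number as a term, Myh7 (0.53, adjusted p = 0.0512) and Pln (-0.31, adjusted p = 0.170) were not called by edgeR, nor were they over the libraries with 11 (0.52, adjusted p = 0.0724, and -0.32, adjusted p = 0.215). Endothelial RNA was present in every library. The 15 endothelial markers summed to 1250 to 1621 CPM over the FA libraries against 1454 to 2108 CPM over the DE libraries. Their median log2 fold change was 0.38, 12 of 15 estimates were positive, and 11 of 15 had an unadjusted p under 0.05, against 25.6% of all tested genes. Of those 11, Sox18 was the one that was lower in DE, at 70.5 and 50.5 CPM (-0.48). In this list 1 gene, the guidance receptor Robo4, was called (0.63, adjusted p = 0.0454, edgeR), against 5.80%. Robo4 was not called with the name number as a term (0.42, adjusted p = 0.206, edgeR) or without any one of 6 libraries. Pecam1 was 230 ± 36.1 CPM in FA and 296 ± 59.2 CPM in DE, Emcn was 56.2 ± 12.4 and 80.1 ± 6.82 CPM, and Cdh5 was 258 ± 37.5 and 260 ± 49.9 CPM. In bulk RNA, fewer cells of a type and less RNA per cell cannot be told apart.

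Against the mean log2 count of these markers, Kdr differed by -0.27 between the exposures (exact permutation p = 0.171, adjusted p = 0.514), Flt1 by -0.16 (exact permutation p = 0.371, adjusted p = 0.549) and Flt4 by 0.012 (exact permutation p = 0.971, adjusted p = 0.971). The log2 levels of Flt1, Kdr, Flt4 and Nrp2 gave correlations of 0.55, 0.50, 0.57 and 0.51 with the mean of the 15 markers over the 8 libraries, that of Nrp1 gave -0.52, and that of Pgf, a ligand, gave the highest of the members, 0.83. Single markers differed. Flt1, Kdr and Nrp2 gave 0.70 each with Cdh5 but 0.31, 0.33 and 0.32 with Emcn, and Nrp1 gave 0.11 and -0.43. These are descriptions over libraries that pool both exposures and share depth and preparation.

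Markers of other cell types were read beside Pgf, and the summed level of those of fibroblasts was higher in DE. The 8 fibroblast markers summed to 1758 to 3100 CPM over the FA libraries against 3301 to 5340 CPM over the DE libraries, without overlap, and 3 of 8 were called higher, Col1a1 (log2 fold change 0.95), Dpt (0.84) and Dcn (0.56), against 3.58% of all tested genes, while Pdgfra was 28.4 ± 5.37 CPM in FA and 39.5 ± 13.4 CPM in DE. Over the libraries with 11, Dpt (0.89, adjusted p = 0.0643, edgeR) and Dcn (0.60, adjusted p = 0.103, edgeR) were not called, nor was Dcn with the name number as a term (0.61, adjusted p = 0.0833, edgeR), though these estimates were no smaller, and leaving out any one of 4 libraries ended the call of Dpt and any one of 6 that of Dcn. Relative to the mean log2 count of the fibroblast markers, Pgf lay at -5.09 to -4.22 in FA against -5.19 to -3.89 in DE, which overlapped, with a difference of 0.30. Relative to the endothelial markers it lay at -3.97 to -3.66 in FA against -3.45 to -2.85 in DE, without overlap, with a difference of 0.64. Relative to the cardiomyocyte markers the difference was 1.18, also without overlap. These markers' part in the Pgf result was not tested beyond those values. The 9 leukocyte markers summed to 12.5 to 18.6 CPM in FA and 15.6 to 26.5 CPM in DE, which overlapped. Cd68 made up most of that sum, at 8.15 ± 1.81 and 12.7 ± 3.31 CPM (log2 fold change 0.65, adjusted p = 0.0813, edgeR). Ptprc was 0.586 and 0.848 CPM, and Itgam was the only one called of 5 tested (0.94), against 5.80% of all tested genes. Its call, at under 1 CPM in FA, was lost by DESeq2 (adjusted p = 0.0603), with the name number as a term (adjusted p = 0.159, edgeR), over the libraries with 11 (adjusted p = 0.203, edgeR), with no filter (adjusted p = 0.0581, edgeR) and without any one of 7 libraries. The log2 level of Pgf gave correlations of 0.57, 0.87 and -0.82 with the means of the fibroblast, leukocyte and cardiomyocyte markers over the 8 libraries. Those libraries pool FA and DE, so any difference between the exposures enters these values. The part of these markers in the Pgf result was not tested. The 8 mural markers summed to 1602 to 2154 CPM in FA and 1174 to 1539 CPM in DE, without overlap, and none was called by edgeR. That sum is mostly Acta2 and Abcc9, and 5 of the 8 estimates were positive, with a median log2 fold change of 0.11. The 2 with an unadjusted p under 0.05 were Acta2, at 1151 and 746 CPM (log2 fold change -0.63, adjusted p = 0.0562, edgeR), and Abcc9, at 401 and 298 CPM (-0.43, adjusted p = 0.120, edgeR), while Pdgfrb was 58.7 and 67.2 CPM. The 4 erythroid markers found summed to 287.6 to 716.2 CPM in FA and 445.1 to 747.8 CPM in DE. Of these, Slc4a1, at 1.67 and 3.20 CPM, was called higher (0.95, adjusted p = 0.0422, edgeR), against 3.58% of all tested genes. Its call was lost by limma-voom (adjusted p = 0.0511), over the libraries with 11 (adjusted p = 0.0654, edgeR) and without any one of 6 libraries. No mesothelial marker of 4 was called or had an unadjusted p under 0.05, with a sum of 82.8 to 107 CPM in FA and 77.8 to 112 CPM in DE (Wt1 23.2 and 26.9 CPM), and the same held for the 3 endocardial markers. The 6 lymphatic markers, which bear on Vegfc and Flt4, summed to 73.6 to 113 CPM in FA and 70.6 to 99.7 CPM in DE. Prox1 makes up much of that sum, and 5 of the 6 estimates were positive, with a median log2 fold change of 0.33. Of the 6, Lyve1 was called higher (0.77, adjusted p = 0.0304, edgeR), against 3.58% of all tested genes. Prox1, a regulator that cardiomyocytes also express, was called lower (-0.73, adjusted p = 0.0265, edgeR), against 2.22%. Prox1 was not called with the name number as a term (-0.56, adjusted p = 0.109, edgeR), over the libraries with 11 (-0.56, adjusted p = 0.140, edgeR) or without any one of 4 libraries, and Lyve1 was not called without any one of 5 libraries.

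The other genes of the VEGF pathway were taken from lists written with earlier results of these data known, and each count of called genes is to be read against the 5.80% called over all tested genes. In the processing of VEGFC and VEGFD, 1 of 7 genes was called, Pcsk6, a proprotein convertase that rose from 13.0 to 21.3 CPM (log2 fold change 0.71, adjusted p = 0.0247, edgeR). That call was lost without FA replicate 2 (0.71, adjusted p = 0.0822, edgeR), without DE replicate 3 (0.70, adjusted p = 0.0698, edgeR) and over the libraries with 11 (0.74, adjusted p = 0.0757, edgeR), while the estimate hardly moved, and it was kept with the name number as a term (0.74, adjusted p = 0.0469, edgeR). The median of the list was -0.018. Vegfd, the other ligand of Flt4, was 1.33 ± 0.223 CPM in FA and 2.22 ± 0.629 CPM in DE (0.73, adjusted p = 0.0864, edgeR), and it was called by edgeR's likelihood ratio test (adjusted p = 0.0464). Among 13 neuropilin ligands and partners none was called by edgeR or limma-voom and 4 had an unadjusted p under 0.05, against 25.6% of all tested genes, while DESeq2, edgeR's likelihood ratio test and edgeR without DE replicate 1 called 1 each and edgeR with length and GC offsets called 2. Plexin A1 (Plxna1), through which semaphorins signal beside neuropilins, was 80.3 and 59.2 CPM in FA and DE (-0.44, adjusted p = 0.0653, edgeR), and it was called under 4 of the 18 other settings (adjusted p from 0.0201 to 0.0364). Plxnd1, the endothelial semaphorin receptor, was 204 and 257 CPM (0.33, adjusted p = 0.123, edgeR).

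Inside the cell, 1 of 21 tested genes of VEGF receptor signalling was called, the adaptor Nck1, which fell from 37.5 to 27.1 CPM (log2 fold change -0.47, adjusted p = 0.0349, edgeR), and the median was 0.024. That call was lost without any one of 7 of the 8 libraries, with the name number as a term (adjusted p = 0.116, edgeR) and over the libraries with 11 (adjusted p = 0.158, edgeR). It was also lost with length and GC offsets (-0.37, adjusted p = 0.0614, edgeR) and with scaling by library totals alone (-0.40, adjusted p = 0.051, edgeR). In the angiopoietin and Tie system, which stabilises vessels beside VEGF, none of 4 genes was called over all 8 libraries by edgeR, limma-voom or DESeq2, or had an unadjusted p under 0.05 in edgeR, and 1, Angpt1, was called by edgeR without DE replicate 1. Angpt2 was 12.2 and 15.2 CPM (0.32, adjusted p = 0.225, edgeR). Angpt1 was 33.3 ± 4.32 CPM in FA and 23.5 ± 14.0 CPM in DE (-0.50, adjusted p = 0.350, edgeR), but the value rests on single libraries. It was -0.98 (adjusted p = 0.0286, edgeR), a call, without DE replicate 1, and 0.028 over the libraries with the number 11.

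Genes known to respond to VEGF or to shape vessel sprouts had 2 of 15 called, against 5.80% of all tested genes. Apln, the peptide apelin of sprouting tip cells, rose from 4.52 ± 0.679 to 13.5 ± 6.17 CPM (log2 fold change 1.58, adjusted p = 0.0173, edgeR). This call was lost without FA replicate 2, without DE replicate 3 and with the name number as a term or 11 alone. In the last of these settings, with the term or 11 alone, the estimate was 0.90. Notch4, an endothelial Notch receptor, rose from 28.5 to 44.1 CPM (0.63, adjusted p = 0.0396, edgeR). Its call was lost without any one of 6 libraries, with the name number as a term (0.45, adjusted p = 0.171, edgeR) and over the libraries with 11 (adjusted p = 0.123, edgeR), and the list's median was 0.12.

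Upstream of the family, Vegfa is known as a target of hypoxia-inducible factors. Of 14 genes that low oxygen is known to induce, 5 were called higher, against 3.58% of all tested genes, and none lower by edgeR, 10 of 14 estimates were positive, and the list's median was 0.41. Bnip3, a mitophagy receptor, rose from 88.4 ± 7.74 to 191 ± 26.0 CPM (1.11, adjusted p = 0.000628, edgeR). Slc2a1, the glucose transporter GLUT1, rose from 26.9 ± 1.52 to 52.0 ± 9.90 CPM (0.95, adjusted p = 0.00308, edgeR). Ldha, Pgk1 and Ndrg1 were called at 0.71, 0.46 and 0.52. Pgk1 and Ndrg1 were not called with the name number as a term (adjusted p = 0.114 and 0.213, edgeR), and each lost its call without any one of 6 libraries. Bnip3, Slc2a1 and Ldha were called under each of the 18 other settings. The estimate of Vegfa, 0.073, lay within the range of this list, which also held negative estimates. Of 9 hypoxia-inducible factors and oxygen sensors 1 was called, Egln3, a prolyl hydroxylase that is itself induced by low oxygen, which rose from 28.1 ± 4.25 to 63.2 ± 22.8 CPM (1.17, adjusted p = 0.0231, edgeR), and the list's median was -0.077. Egln3 was not called with the name number as a term (0.70, adjusted p = 0.0908, edgeR), over the libraries with 11 (0.69, adjusted p = 0.131, edgeR), or without FA replicate 2, FA replicate 4 or DE replicate 3 (1.01 to 1.22). Over the libraries with the number 11 alone, 3 of the 14 hypoxia-induced genes were called, against 1.75% of the genes tested in that fit.

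**Figure D5:**
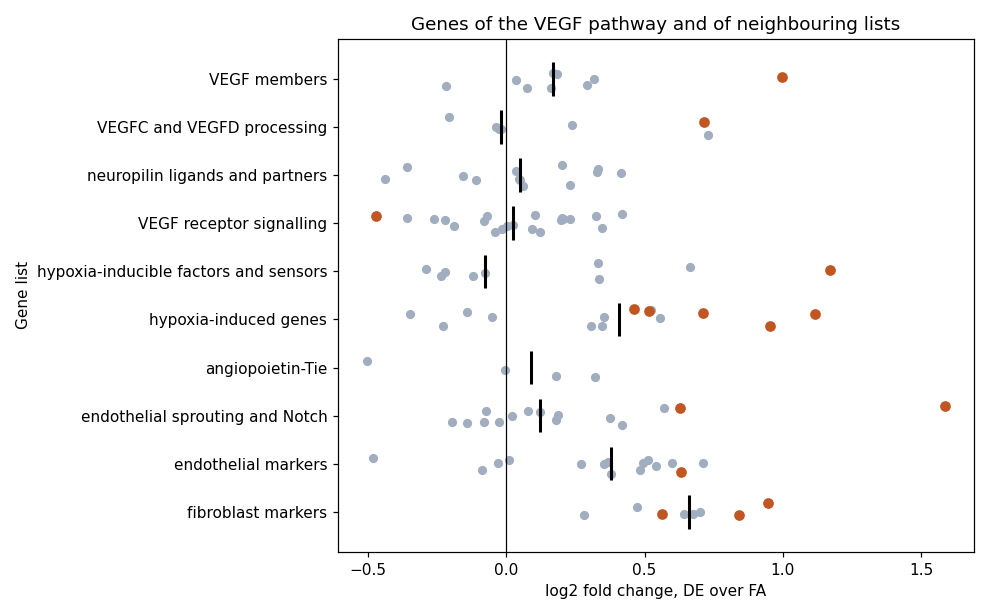
Log2 fold change, DE over FA (horizontal axis), of each gene in the VEGF family and in 9 other lists, with called genes in orange, other tested genes in grey and the list's median as a bar. The family's median is 0.17, that of the hypoxia-induced genes 0.41 and that of the fibroblast markers 0.66.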

How the data were processed

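RNA from the neonatal cardiomyocytes (NCMs) of 8 male hearts was enriched for poly-A and sequenced. Libraries were made with a stranded kit, and TopHat alignment to mm10 with an Ensembl transcriptome by the authors was followed by marking of duplicates, which stayed in, and by featureCounts. The deposited table gives raw counts, not normalised, for Entrez genes. How featureCounts handled strand and fragments shared by several genes, and which annotation it counted on, is not given in the sources used here. Symbols were found for 25275 of 27179 genes through a RefSeq table (GRCm38.p6), and all 9 members were found there. Libraries held 17943024 to 39839737 counts, and marked duplicates in them are not independent molecules. The methods give another number of libraries per group than the 4 deposited, and all 8 were used.

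Counts were filtered with filterByExpr (minimum count 10), scaled by TMM factors and tested across 14966 genes with edgeR 4.0.16 (quasi-likelihood test, exposure as the only term, Benjamini-Hochberg adjustment) in R 4.3.3. Called genes had an adjusted p of at most 0.05 and a level in one group at least 25% above the other. CPM were scaled by the same factors. Ratios of counts, with 0.5 added, were compared by exact two-sided permutation tests. All members passed the filter on low counts. Alternatives were DESeq2 1.42.0, the likelihood ratio test, voom in limma 3.58.1, other scaling, other filters, the number in the sample names, libraries with the number 11, length and GC offsets (known for 92.55% of tested genes), and each library left out in turn. The code was tested on simulated data. Exon lengths came from GENCODE on GRCm38. No 2 libraries of a group agreed within sampling noise.

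The members and lists were chosen with earlier results of these data known. Named were all members, the called genes of each pathway list (at most 6) or, where none was called, the 2 with the smallest adjusted p, the 3 genes most correlated with a called member, a fixed set of markers and any called marker. Vegfd, Cd68, Sox18, Ttn, Acta2 and Abcc9 were chosen after their values were seen.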

Additional observations from a re-analysis of the deposited data

Results flagged for a closer look

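In the 4 FA libraries, the level of Vegfb in FA replicate 3, 151.7 CPM, stood apart from the other 3, which lay between 109.6 and 112.4 CPM. The gap to the nearest library was 0.935 of the group's whole range, above Dixon's 95% critical value for 4 samples. The 9 members in each exposure gave 18 groups, and chance flags about 1 in 20 groups. FA replicate 3 was also the lowest library of all 8 for Flt1, Kdr and Nrp2.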

How the results depend on the processing

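The 18 other settings of the fit left the log2 fold change of Pgf positive, between 0.60 and 1.13 (adjusted p between 0.000482 and 0.133), and ended its call in 5 of them. The count of called members was 0, not 1, with the number in the sample names as a term and over the libraries with the number 11 only, and ran from 0 to 1 when each library was left out. No other member was called under any of them. The number of called genes was 868, and it was 1618 by DESeq2, 1603 by the likelihood ratio test, 448 with the number as a term, 260 over the libraries with 11 and 1539 with length and GC offsets, and 237 (without FA replicate 4) to 1168 (without DE replicate 1) when each library was left out. Fewer samples enter the last of these and the fit with 11 only. For the others the cause was not tested. Estimates near 0 turned negative, Vegfa to -0.054 with the number as a term, -0.058 with 11 only and -0.016 without FA replicate 6, and Kdr to -0.091, -0.065 and -0.033 on leaving out FA replicate 3, DE replicate 7 or DE replicate 3 (Kdr reached at most 0.14 on leaving out a library). Angpt1 was called without DE replicate 1 (-0.98) and turned positive, to 0.034 with the number as a term and 0.028 with 11 only. The ratio of Flt4 to the endothelial markers ran from -0.15 to 0.15, and its negative values were -0.022, -0.15 and -0.0035 on leaving out FA replicate 3, FA replicate 6 or DE replicate 7. Counts for 9 further lists, an alternative chosen after seeing the data, ran from 0 to 6 called for the 15 endothelial markers (6 by DESeq2), 1 to 7 for the 8 fibroblast markers and 3 to 6 for the 14 hypoxia-induced genes. Without a single library, 6 of 8 fits end the calls of Pgk1, Ndrg1, Notch4, Robo4, Dcn, Slc4a1, Pln and Clic1, and 7 of 8 those of Nck1 and Itgam. Pgk1, Ndrg1 and Itgam were not called with the number as a term or with 11 only, nor Slc4a1 with 11 only. The low counts of Pgf and the 4 libraries per exposure limit its precision. No paired analysis was possible because FA replicates 2, 3, 4 and 6 and DE replicates 1, 3, 5 and 7 share only 1 number.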
